A study of Mus musculus with 2 samples.

Results

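The genes of kainate-type and delta 1 glutamate receptors were described in DNase-seq of mouse frontal cortex. The 8 genes were chosen by symbol from the 21938 protein-coding genes of the GENCODE M21 annotation: the kainate receptor subunit genes Grik1, Grik2, Grik3, Grik4 and Grik5, the auxiliary subunit genes Neto1 and Neto2, and the delta 1 gene Grid1. Each was taken as its gene record plus 10 kb on either side, and a peak or footprint belonged to a gene when its midpoint lay there. The tissue, frontal cortex, came from female mice of the strain B6CASTF1/J at 14 days of age, with no treatment and no second condition. The strain is a first-generation cross of C57BL/6J and CAST/EiJ, so that every animal carries 1 genome of each parent strain. All samples form 1 group, of 2 libraries that are labelled as biological replicates 1 and 2 and come from different biosamples with the same donor label. A further label reads 3x, whose meaning is not stated, so pooling of animals is unknown and the spread between the libraries may be partly technical. Whole tissue was used, so that fewer cells of a type and less accessibility per cell cannot be told apart.

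Kainate receptors are ion channels of 4 subunits opened by glutamate, found on both sides of synapses in the forebrain. Subunits GluK1 to GluK3 can form channels by themselves, whereas GluK4 and GluK5 bind kainate with high affinity and need a GluK1 to GluK3 partner. Neto proteins sit beside the channel and slow its closing. Delta receptors resemble these channels in sequence but act largely as synaptic adhesion and signalling proteins that bind cerebellins, which in turn hold presynaptic neurexins. In DNase-seq, the nuclease cuts most where regulatory proteins have displaced nucleosomes. A peak is a stretch of dense cutting, its strength is the value the authors deposited with it, and a footprint is a short stretch within dense cutting that is protected, as under a bound protein.

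Replicate 1 had 93641 peaks and replicate 2 had 66196. The strengths were whole multiples of 0.00670 in replicate 1 and of 0.00858 in replicate 2, but neither their scale nor the read depth is stated. In replicate 1, 128 peaks and 297 footprints lay at the 8 genes, against 90 peaks and 149 footprints in replicate 2. With 1 group, no test between conditions was possible, and each value is given in both libraries. As a check of the tissue, both libraries had a peak at the start site of 4 of 4 neuronal, 2 of 4 excitatory, 2 of 4 inhibitory, 2 of 4 astrocyte, 1 of 2 telencephalic, 0 of 4 oligodendrocyte, 0 of 4 microglial and 0 of 3 endothelial marker genes, and of 1 of 4 genes of other tissues.

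The promoters of these genes were accessible but mostly weak. A promoter peak, one that overlaps the 500 bp on either side of an annotated start site of the gene, was found for 8 of 8 genes in replicate 1 and 7 of 8 in replicate 2. Among all protein-coding genes the shares were 63.8% in replicate 1, 59.2% in replicate 2 and 58.8% in both. For genes of at least 100 kb, a length that 6 of the 8 exceed, 83.1% had one in both libraries. Of those 6 members, all but Grik3 did. The median strength of the strongest promoter peak was 1.08 in replicate 1 and 0.88 in replicate 2 over the members that had one. These medians include Grik5 and Neto2, which are shorter than 100 kb. Over all protein-coding genes with a promoter peak these medians were 2.70 and 1.87, and over those of at least 100 kb 1.83 and 1.30. In the authors' shorter, stricter peak list, 3 of 8 kept a promoter peak in both libraries, Grik2, Grik4 and Neto2. This compares with 52.4% of protein-coding genes and 1797 of the 2492 of at least 100 kb. Only Grik5 lacked one in replicate 1, whereas in replicate 2 those 3 alone kept one.

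**Figure D1:**
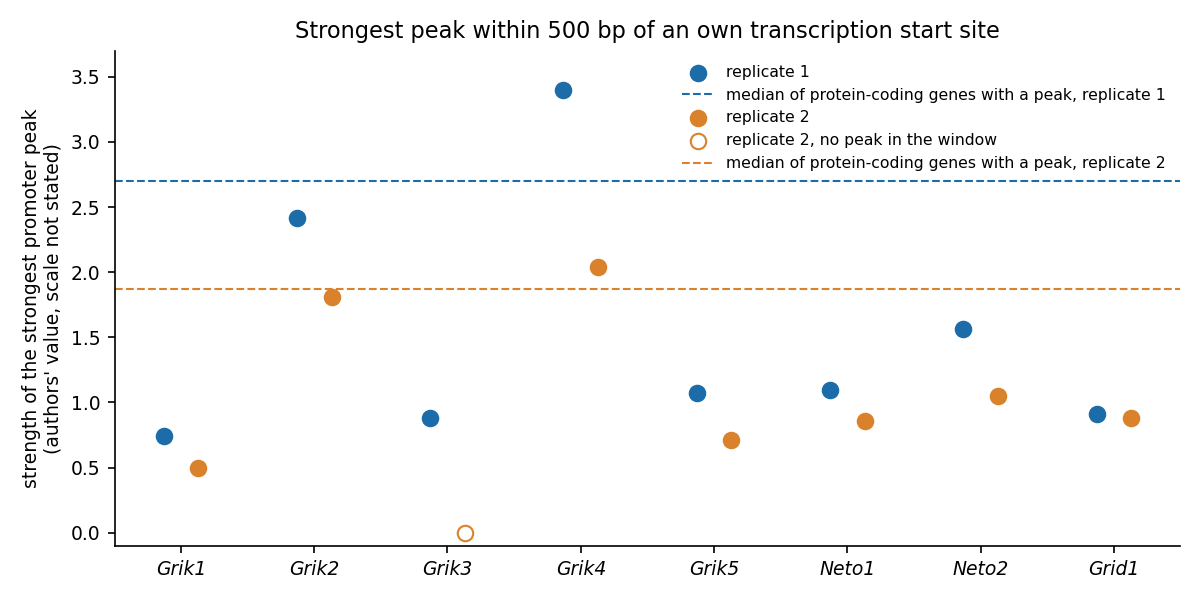
Strength of the strongest promoter peak of each gene (vertical axis, the authors' value with no stated scale) in replicate 1 (blue) and replicate 2 (orange), 1 point per library. Dashed lines are the medians over protein-coding genes with a promoter peak, 2.70 and 1.87. Grik4 lies above both medians at 3.40 and 2.04, and Grik3 has no peak in the window in replicate 2 (open point).

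Grik4, for the high-affinity subunit GluK4, had the strongest promoter of the 8. Its gene record covers chr9:42518135-42944493 on the minus strand, 426 kb. The peak at chr9:42944821-42945040 had strength 3.40 in replicate 1 and 2.04 in replicate 2, above 60.6% and 54.6% of the protein-coding genes with a promoter peak. It lay 328 bp upstream of the start site, so that within 250 bp of a start site the strongest Grik4 peaks were 0.71 and 0.88. Those weaker peaks did not overlap between the libraries, being downstream of the start in replicate 1 and across it in replicate 2. All 200 bases of that peak of replicate 2 were also called accessible in replicate 1, at an FDR below 0.05. Of the 580 bases of the peak of replicate 1, 8 were called in replicate 2. A second start site of Grik4, 135.9 kb into the gene at exon 3, had a peak of 0.55 in replicate 2 and none in replicate 1.

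Grik2 followed. It encodes GluK2, the subunit of most forebrain kainate receptors, and lies at chr10:49094833-49788766 on the minus strand, 694 kb. Its peak at the 5′ end, chr10:49788661-49788960 over both libraries, had strength 2.42 in replicate 1 and 1.81 in replicate 2, near the middle of the protein-coding genes with a promoter peak (percentiles 45.3 and 48.4). The window of this peak also holds a start site of the predicted gene Gm48123. A second, broader group of peaks 5.5 kb into the gene, around further start sites near exon 2, reached 1.23 and 1.18 and was of nearly equal strength in the libraries. Its weaker peaks had 1.06 and 1.16, and that of replicate 2 lies inside the stronger one.

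Neto2, for an auxiliary subunit, lies at chr8:85636588-85700924 on the minus strand, 64 kb, and its promoter peak had strength 1.56 in replicate 1 and 1.05 in replicate 2 (percentiles 29.7 and 23.6). Weaker promoter peaks of Neto2 had 0.92 and 0.68 in replicate 1 and 0.81 and 0.66 in replicate 2. The peak of 0.68 lies inside that of 0.92. A start site of the microRNA gene Mir8109 falls within the same windows. Grid1 (chr14:34820108-35583379, plus strand, 763 kb) had a promoter strength of 0.91 and 0.88 (percentiles 15.9 and 17.98). The Grid1 peaks behind these values differ, since the strongest in replicate 1 covers the start site and that of replicate 2 lies 473 bp upstream, while a peak of 0.87 in replicate 2 overlaps the one of replicate 1. A weaker Grid1 peak of replicate 1, of 0.67, lies inside the strongest one of that library. Promoters of Grik2, Grik4, Neto2 and Grid1 held bases that were footprinted in both libraries. Their reference sequences are shown to place those bases, which are in capitals, on the strand of each gene, 5′ to 3′, from the GRCm38 genome (mm10) of RefSeq. They leave out annotated untranslated exons and span chr9:42944821-42945040 for Grik4, chr10:49788767-49788960 for Grik2, chr8:85700957-85701256 for Neto2 and chr14:34820228-34820527 for Grid1.
Grik4: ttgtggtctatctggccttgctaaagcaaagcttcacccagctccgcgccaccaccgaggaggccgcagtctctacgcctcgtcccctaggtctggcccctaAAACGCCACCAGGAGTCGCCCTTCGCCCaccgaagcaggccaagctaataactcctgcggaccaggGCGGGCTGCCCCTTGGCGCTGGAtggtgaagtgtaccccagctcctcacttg
Grik2: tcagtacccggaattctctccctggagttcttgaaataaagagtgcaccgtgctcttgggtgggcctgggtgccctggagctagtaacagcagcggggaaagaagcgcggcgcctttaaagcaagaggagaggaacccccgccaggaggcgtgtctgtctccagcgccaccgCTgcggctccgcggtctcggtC
Neto2: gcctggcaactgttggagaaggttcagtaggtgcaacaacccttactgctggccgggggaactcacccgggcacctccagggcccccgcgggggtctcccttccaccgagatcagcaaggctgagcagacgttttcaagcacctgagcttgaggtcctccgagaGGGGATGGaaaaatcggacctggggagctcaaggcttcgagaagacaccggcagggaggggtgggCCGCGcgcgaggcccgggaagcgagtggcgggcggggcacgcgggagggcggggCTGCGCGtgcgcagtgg
Grid1: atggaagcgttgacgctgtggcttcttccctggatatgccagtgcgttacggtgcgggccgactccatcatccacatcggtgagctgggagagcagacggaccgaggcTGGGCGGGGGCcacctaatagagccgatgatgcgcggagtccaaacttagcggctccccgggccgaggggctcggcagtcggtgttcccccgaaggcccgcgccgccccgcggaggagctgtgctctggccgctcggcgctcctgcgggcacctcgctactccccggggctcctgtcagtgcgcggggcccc
The Grik4 sequence has 51 bases footprinted in both libraries, in 2 stretches, and the one nearer the gene begins within GGGCGG, the box bound by SP and KLF factors. In the Grid1 sequence, which begins with the coding start of the gene, all 11 shared footprint bases cover such a GGGCGG. This box is common, being within 300 bp windows of 53.3% and 55.2% of all peaks at start sites in replicates 1 and 2. Among footprints extended by 5 bp it was in 5.05% and 3.36% of those of the 8 genes, against 8.05% and 8.35% of all. The Neto2 sequence has 20 shared bases in 3 short stretches, and the Grik2 sequence 3.

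The other subunit promoters were among the weakest of accessible promoters. Grik1 encodes GluK1, whose cortical expression is known mainly from inhibitory neurons, and lies at chr16:87895900-88290265 on the minus strand, 394 kb. Its strongest promoter peak had 0.74 in replicate 1 and 0.50 in replicate 2, above 11.3% and 4.55% of the protein-coding genes with a promoter peak. Its second promoter peak had 0.49 and 0.38. Of the bases of the strongest, 39.1% in replicate 1 and 63.1% in replicate 2 are masked as repeats in the reference sequence. The effect of repeats on the strengths was not tested. Grik3, for GluK3, lies at chr4:125490700-125714173 on the plus strand, 223 kb. It had 4 promoter peaks of 0.52 to 0.88 in replicate 1, the strongest at percentile 15.3. Some of these overlap one another, and merging left 3 promoter sites. Its peak in replicate 2, of strength 0.63, ends 502 bp before the only annotated start site, just outside the window, and overlaps the strongest of replicate 1. Grik5, for the high-affinity subunit GluK5, lies at chr7:25009849-25072346 on the minus strand, 62 kb. Its promoter strengths were 1.07 and 0.71 (percentiles 19.5 and 11.7). Both of those peaks lie more than 300 bp upstream, on the side shared with Zfp574, and no peak was within 250 bp of a Grik5 start site in either library. The strongest promoter peaks of these 3 genes held no base that was footprinted in both libraries.

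Around the start sites of Grid1 and Grik3, replicate 1 had further peaks that replicate 2 lacked. Grik3 had 4 linked peaks of 0.54 to 0.90 in the first 5.0 kb of the gene and 1 of 0.84 located 3.9 kb upstream in replicate 1, against 0 in replicate 2. Bases called accessible at an FDR below 0.05 covered 745 of the 1001 bases around the Grik3 start site in replicate 1 and 0 in replicate 2. At the Grid1 start sites, 1001 of 3003 bases were called in replicate 1 and 118 in replicate 2. At those of Neto2 the same number, 1171 of 2208 bases, was called in each library, and at those of Grik2 1965 and 1937 of 7169 bases.

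Linked peaks, those that overlap no window around a start site of any gene, made up 104 of 128 member peaks in replicate 1 and 69 of 90 in replicate 2. Of these, 80 in replicate 1 and 56 in replicate 2 lay in introns of the gene. All 8 genes had at least 1 linked peak in both libraries, as did 54.4% of protein-coding genes of any length. Long genes hold more such peaks, and the share among long genes was not computed. For genes of at least 100 kb the median number was 6 in replicate 1 and 4 in replicate 2. Over all protein-coding genes it was 1 in each library. Counts of the 8 genes ran from 3 to 31 in replicate 1 and from 3 to 22 in replicate 2, with Grid1 first and Grik4 second. Grid1 had 31 in replicate 1 and 22 in replicate 2, Grik4 25 and 16, Grik5 14 and 10, Grik3 10 and 4, Grik1 9 and 8, Grik2 7 and 3, Neto1 5 and 3, and Neto2 3 and 3. The order of Grik3 and Grik1 differed between the libraries. With only as many of the strongest peaks of replicate 1 as replicate 2 has, linked peaks of the 8 genes numbered 79 in replicate 1 and 69 in replicate 2. Grik1 then had 3 and 8, and Grid1 21 and 22.

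Per length the picture changed. Grik5 had 16.97 linked peaks per 100 kb in replicate 1 and 12.12 in replicate 2, and Grik4 5.60 and 3.58. Grid1 had 3.96 and 2.81, near Neto1 at 3.79 and 2.28 and Neto2 at 3.56 in each library. Grik3 had 4.11 and 1.64, and Grik1 2.17 and 1.93. Grik2, although the second longest, had 0.98 and 0.42, the lowest of the 8. Among genes of at least 100 kb, with medians of 2.75 and 1.65, Grik4 lay above 86.3% and 85.5%, Grid1 above 70.1% and 75.1%, and Grik2 above 15.7% and 10.6%. The Grik5 value includes its surroundings. In the gene record alone, of 62 kb, 5 and 4 linked peaks remained, still the most per length of the 8. Grik4 had 24 and 16 in its record of 426 kb. Of the linked peaks of Grik5, 9 of 14 in replicate 1 and 6 of 10 in replicate 2 lay outside the gene record, most of them past its 3′ end. The strongest peak in the range, 5.68 and 3.23, was at the start site of the neighbour Zfp574.

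**Figure D2:**
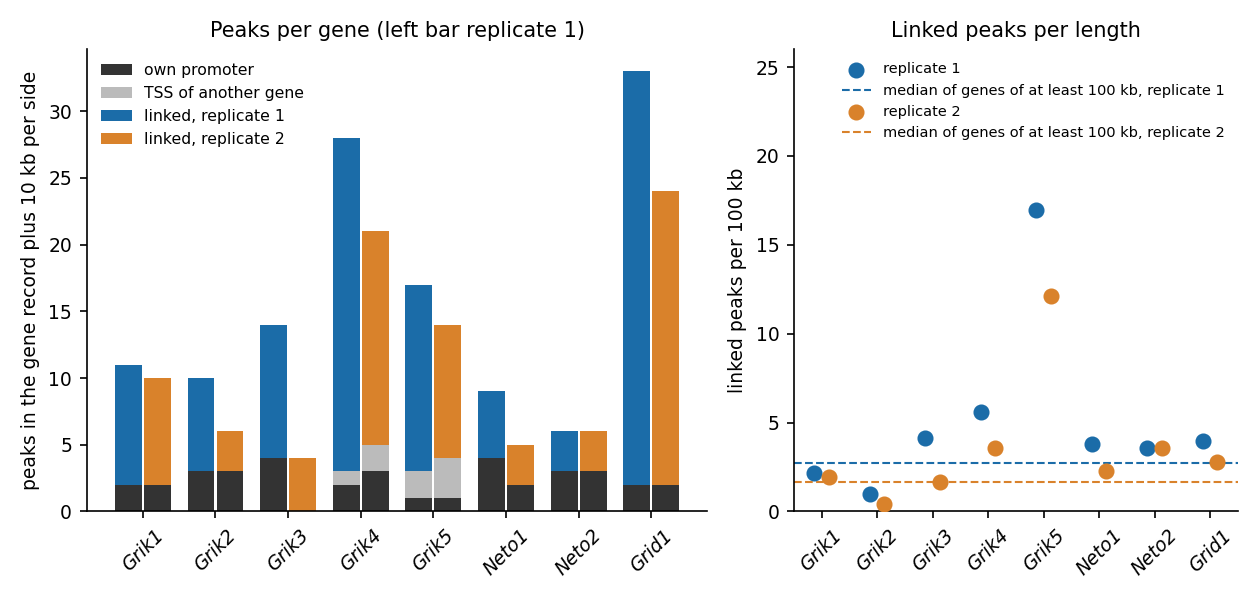
Left, peaks in each gene record plus 10 kb per side, stacked by class, with the bar of replicate 1 left of that of replicate 2. Right, linked peaks per 100 kb in each library (points) with the medians of genes of at least 100 kb (dashed lines, 2.75 and 1.65). Grid1 and Grik4 have the most peaks, whereas per length Grik5 stands highest, at 16.97 and 12.12, and Grik2 lowest.

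Along the genes the peaks were uneven. Grik2 was without any peak for 328 kb toward its 3′ end in replicate 1, 47.2% of the gene. Replicate 2 had no peak there either, its last being 352.5 kb into the gene. The widest gap of replicate 2, 344 kb, was in the first part of Grik2. Neto1 had a gap of 75 kb in both libraries, 67.1% of the gene, and Grik3 gaps of 134 and 139 kb between its 5′ region and intron 2. The peaks of Grik4 were spread over the gene, and its widest gap was 11.8% of the record in both libraries, about 50 kb. In replicate 1, Grid1 had peaks at short intervals from 3.4 kb upstream to 4.8 kb into the gene, several of them broad and weak (down to 0.17). In replicate 2 such peaks ran from 0.8 kb upstream to 4.3 kb into the gene. Further sites of Grid1 lay singly in its long introns.

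**Figure D3:**
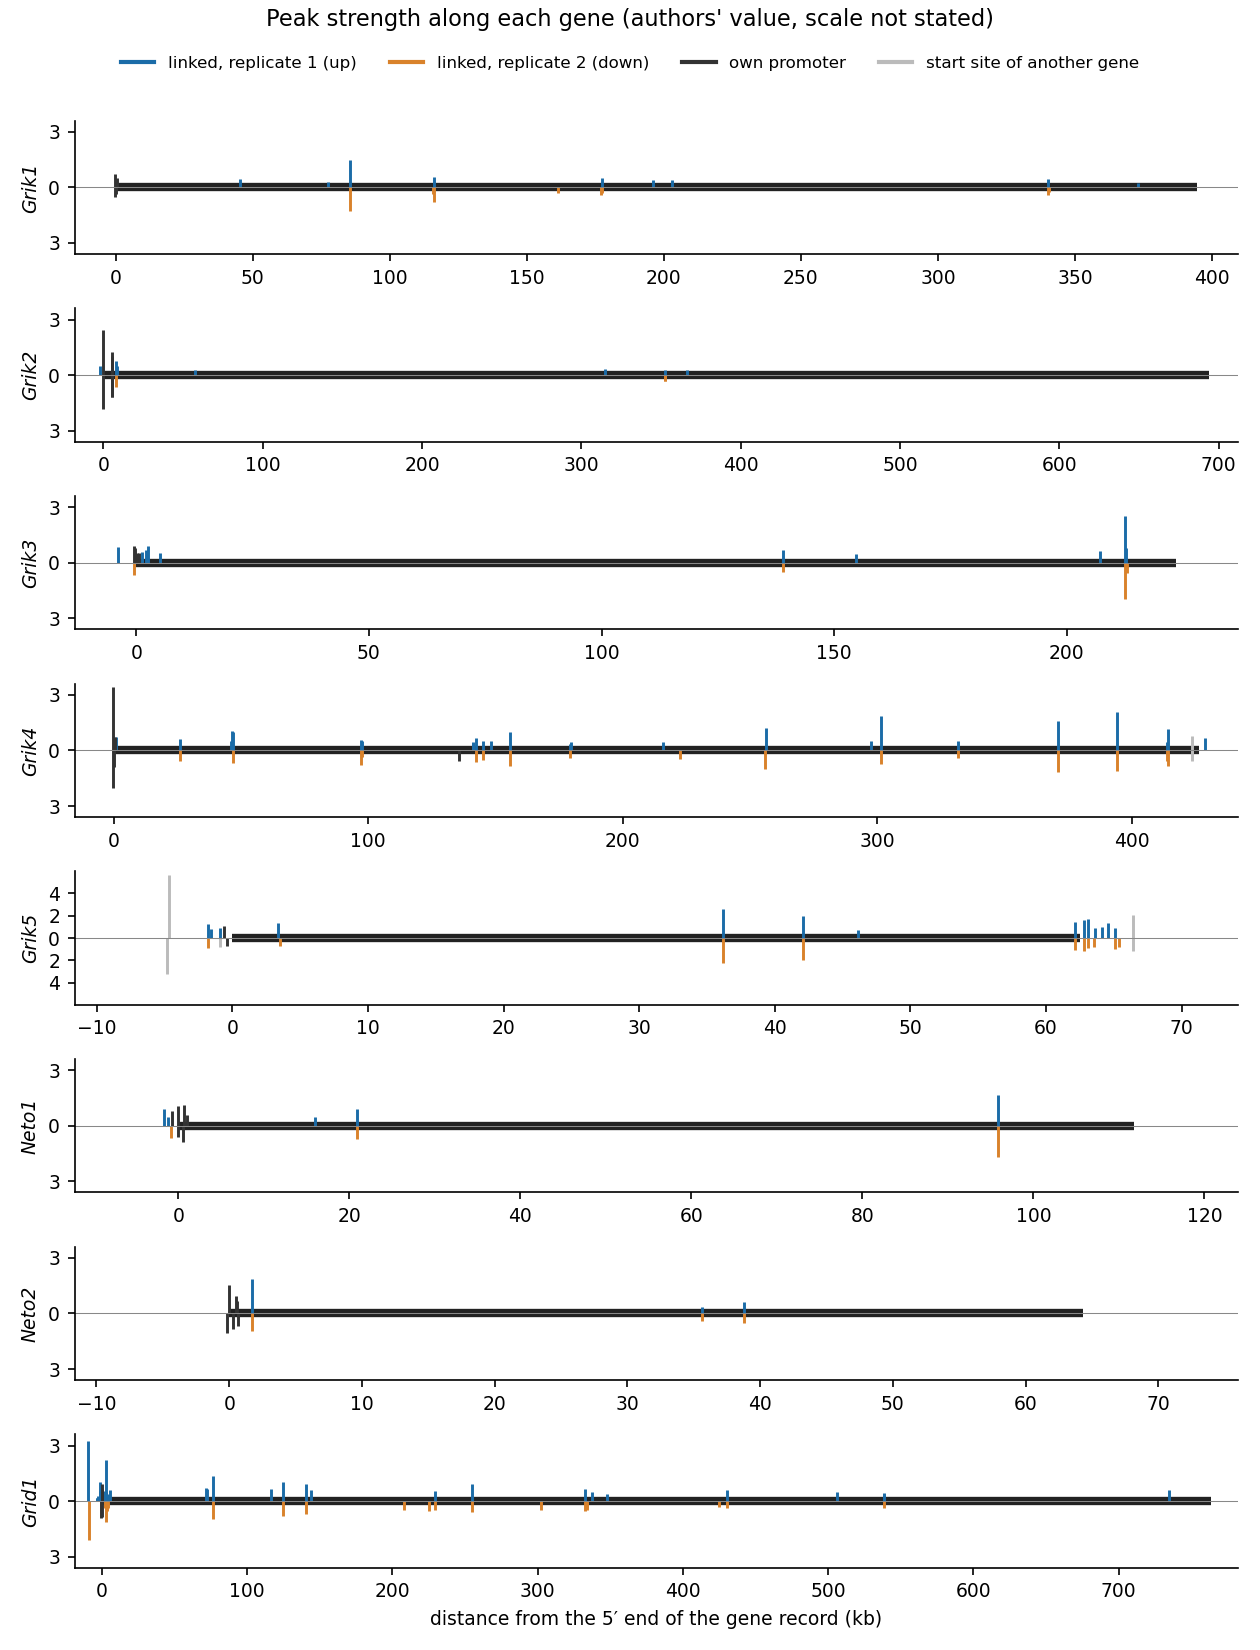
Position of every peak by distance from the 5′ end of the gene record (horizontal axis, kb; black bar, the gene), with the strength in replicate 1 upward and in replicate 2 downward. Strong sites within genes stand in the same place in both libraries, as at 212.4 kb in Grik3, whereas most peaks found in a single library are weak.

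In 5 of the 8 genes, Grid1, Grik5, Grik3, Neto1 and Grik1, the strongest linked site called in both libraries was stronger than any promoter peak of the gene in either library. The share of all protein-coding genes, or of long genes, for which this holds was not computed. Whether 5 of 8 is unusual is therefore unknown. At Grid1, a site 9.2 kb upstream had 3.25 in replicate 1 and 2.10 in replicate 2, above its own promoter at 0.91 and 0.88. In Grik5, a site in intron 12, 36.2 kb into the gene, had 2.58 and 2.20, and a second in the same intron, at 42.1 kb, had 1.96 in both libraries. Of the bases of the first, 68.5% in the peak of replicate 1 and 71.4% in that of replicate 2 are masked as repeats. In Grik3, a site in intron 13 near the 3′ end, at 212.4 kb, had 2.52 and 1.97, where the promoter had 0.88 in replicate 1. In Neto1, a site in intron 7, at 95.9 kb, had 1.67 and 1.66. In Grik1, a site in intron 1, at 85.6 kb, had 1.49 and 1.30, where the promoter had 0.74 and 0.50. In Grik4 the strongest linked sites stayed below the promoter, with 2.10 and 1.13 at 394.1 kb (intron 15) and 1.60 and 1.15 at 371.2 kb (intron 13). Neto2 had 1.87 and 0.97 at 1.7 kb, above its promoter in replicate 1 and below it in replicate 2. Grik2 reached 0.75 and 0.63 at 8.2 kb, and none of its linked sites was in the stricter list of either library.

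Sequences of 6 linked sites are given to show what was protected in both libraries. They are the strongest of Grid1, Grik1, Grik3 and Grik4 and the sites in intron 12 of Grik5 that were called in both libraries. Other shared linked sites also held overlapping footprints and are not shown. Letters follow the strand of each gene, and capitals mark bases inside footprints of both libraries. The sites are Grid1 at chr14:34810841-34811040, Grik5 at chr7:25036021-25036240 and chr7:25030161-25030360, Grik3 at chr4:125703001-125703200, Grik4 at chr9:42550261-42550460 and Grik1 at chr16:88204521-88204720.
Grid1, 9.2 kb upstream: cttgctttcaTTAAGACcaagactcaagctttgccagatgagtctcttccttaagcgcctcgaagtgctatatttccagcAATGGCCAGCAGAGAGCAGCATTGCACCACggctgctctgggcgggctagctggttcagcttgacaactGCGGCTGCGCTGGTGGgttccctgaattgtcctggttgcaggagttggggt
Grik5, intron 12 at 36.2 kb: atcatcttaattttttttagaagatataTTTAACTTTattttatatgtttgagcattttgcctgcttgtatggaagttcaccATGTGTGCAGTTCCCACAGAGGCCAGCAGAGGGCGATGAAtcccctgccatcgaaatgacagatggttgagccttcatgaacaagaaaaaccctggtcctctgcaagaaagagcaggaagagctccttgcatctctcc
Grik5, intron 12 at 42.1 kb: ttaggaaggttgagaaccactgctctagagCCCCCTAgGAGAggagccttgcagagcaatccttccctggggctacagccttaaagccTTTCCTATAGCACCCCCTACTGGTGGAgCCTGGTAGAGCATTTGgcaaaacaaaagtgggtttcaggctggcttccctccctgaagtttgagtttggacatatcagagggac
Grik3, intron 13 at 212.4 kb: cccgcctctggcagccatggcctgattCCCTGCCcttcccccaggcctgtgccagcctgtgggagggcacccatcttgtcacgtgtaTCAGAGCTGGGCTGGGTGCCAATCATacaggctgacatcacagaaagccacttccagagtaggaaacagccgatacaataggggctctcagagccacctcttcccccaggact
Grik4, intron 15 at 394.1 kb: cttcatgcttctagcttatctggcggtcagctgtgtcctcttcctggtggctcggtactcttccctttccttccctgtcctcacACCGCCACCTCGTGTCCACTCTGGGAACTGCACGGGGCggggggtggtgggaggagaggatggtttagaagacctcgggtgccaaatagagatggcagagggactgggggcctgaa
Grik1, intron 1 at 85.6 kb: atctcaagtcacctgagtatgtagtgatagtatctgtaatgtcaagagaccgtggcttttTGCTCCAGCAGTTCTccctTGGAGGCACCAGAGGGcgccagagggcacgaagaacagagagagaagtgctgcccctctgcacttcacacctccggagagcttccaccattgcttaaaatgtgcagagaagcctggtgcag
The long shared stretch of the first Grik5 site, covered by footprints of 43 bases in replicate 1, contains the CTCF consensus, the motif of the factor that anchors chromatin loops. Grik4 had a second such site in intron 13 at 371.2 kb, in footprints of 30 bases in replicate 1. It is shown with 5 bases on either side of the union of the footprints, chr9:42573310-42573349, and with the consensus in capitals.
Grik4, CTCF consensus: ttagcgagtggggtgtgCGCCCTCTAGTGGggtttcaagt
Near the end of the long shared stretch of the Grik3 site is TGCCAA, the reverse complement of the short NFI motif TTGGCA. NFI factors act in glia and maturing neurons. At Grik4 the footprint at 394.1 kb was 47 bases wide in replicate 1 and 38 in replicate 2, the widest of that gene in each library.

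In all, 17 consensus sequences were searched on both strands in the 300 bp around each peak's centre. In linked windows of the 8 genes, the neurogenic E-box CAGATG, bound by bHLH factors, occurred in 29.8% in replicate 1 and 29.0% in replicate 2, against 29.6% and 28.4% of all linked windows. The short NFI motif TTGGCA occurred in 25.96% and 26.09%, against 23.1% and 22.5%, and within the called peaks alone in 22.1% and 20.3%, against 16.4% and 15.2%. GGGCGG occurred in 20.2% and 20.3%, against 11.86% and 12.03%. Within the called peaks alone GGGCGG was in 12.5% and 11.6%, against 9.45% and 9.03%. The linked peaks of the 8 genes also had a higher GC content, with medians of 54.0% and 53.2%, against 51.7% and 51.3% of all linked peaks. The CTCF consensus was in 2.88% and 4.35% of member windows, 3 in each library, against 6.81% and 9.72% of all. The AP-1 consensus TGANTCA was in 7.69% and 8.70%, against 12.1% and 11.1%, and within the called peaks alone in 7.69% and 5.80%, against 8.04% and 6.80%. The homeodomain motif TAATTA was in 10.6% and 13.0% of the windows, against 5.61% and 5.90%, but within the called peaks in 0.96% and 4.35%, against 2.75% and 2.83%. The longer NFI consensus was in 1 of 104 linked windows of the 8 genes in replicate 1 and 0 of 69 in replicate 2. Among all linked windows it was in 1.29% and 1.45%. At start sites, the short NFI motif was in 0 of 24 member windows in replicate 1 and 0 of 21 in replicate 2. Among all windows at start sites it was in 12.5% and 11.9%. These shares are descriptions and rest on few peaks.

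Agreement of the libraries at the peaks of these genes was close to that of peaks in general. Among linked peaks of replicate 1, 54 of 104 overlapped a peak of replicate 2, 51.9% (95% interval 41.9 to 61.8%, exact Clopper-Pearson), against 52.7% of all linked peaks. Among linked peaks of replicate 2, 57 of 69 overlapped a peak of replicate 1, 82.6% (71.6 to 90.7%), against 82.1%. At start sites 18 of 24 peaks of replicate 1 were shared (75%, against 74.4% of all) and 18 of 21 of replicate 2 (85.7%, against 88.6%). Such intervals cover counting error alone. Merging overlapping peaks left 137 sites, of which 69 were in both libraries, 53 in replicate 1 alone and 15 in replicate 2 alone. Among the linked sites 52 of 113 were in both, against 46.6% of all linked sites. Neto2 stood at one end, with all 5 of its sites in both libraries. Grik3 stood at the other, with 4 of 13 in both and 9 in replicate 1 alone. Of the 50 linked peaks of replicate 1 without a partner, 4 (8%) overlapped bases called accessible in replicate 2, against 10.3% of all such peaks. Of the 12 in replicate 2, 3 (25%) overlapped called bases of replicate 1, against 23.9%.

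At the 69 shared sites replicate 1 was the stronger in 62, where this held for 79.3% of all shared sites, with a median log2 ratio of replicate 1 over replicate 2 of 0.36 ± 0.34 (SD over sites), against a median of 0.32 ± 0.39 over all 52787 shared sites. All 13 shared promoter sites were stronger in replicate 1, as were 90.7% of all shared sites at start sites, with a median of 0.42, against 0.52 over all at start sites. The widest difference among the members was in intron 8 of Grik4, 301.4 kb into the gene, with strengths of 1.84 in replicate 1 and 0.74 in replicate 2. Its log2 ratio of 1.31 was above that of 99.7% of all shared sites. At the other end, a site in intron 1 of Grik1 at 116.0 kb had 0.57 in replicate 1 and 0.80 in replicate 2, a log2 ratio of -0.49, above 2.05% of all shared sites.

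**Figure D4:**
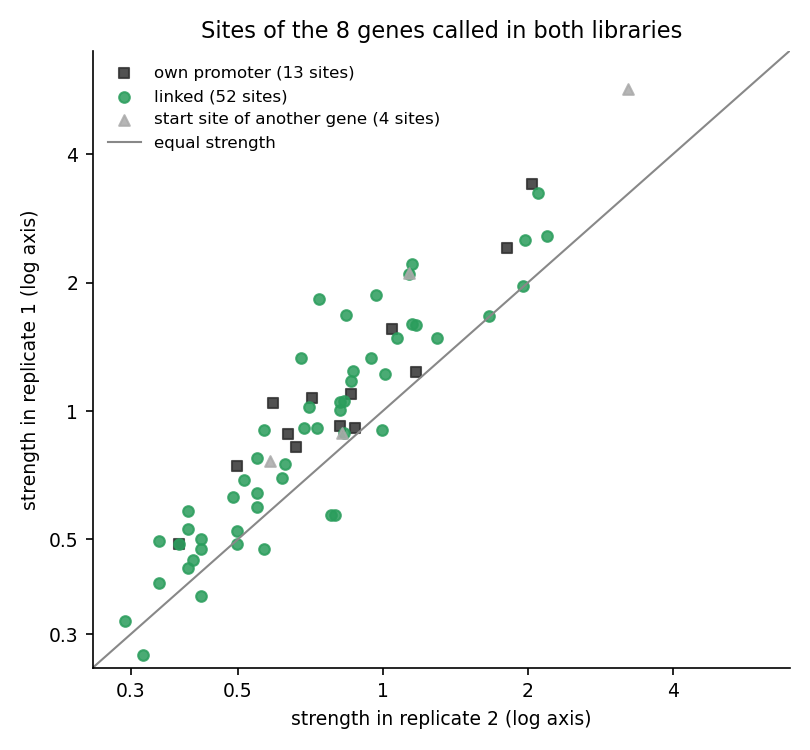
Strength in replicate 1 against replicate 2 (log axes) at the 69 sites of the 8 genes called in both libraries, by class, with the line of equal strength. Of these, 62 lie above the line, among them all 13 promoter sites.

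Most peaks found in a single library were weak. The strongest linked peak of replicate 1 alone was past the 3′ end of Grik5, with 1.37, and the strongest of replicate 2 alone was close by, with 0.79. Elsewhere, the strongest of replicate 1 alone had 0.43 in Grik1, 0.48 in Grik2, 0.90 in Grik3, 0.75 in Grik4, 0.72 in Grid1 and 0.93 in Neto1. In replicate 2 alone they had 0.34 in Grik1, 0.34 in Grik2, 0.47 in Grik4 and 0.51 in Grid1. Grik3, Neto1 and Neto2 had none.

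Footprints numbered 297 in replicate 1 and 149 in replicate 2. Grik4 had 64 and 25, Grid1 57 and 26, Grik5 57 and 31, Grik3 33 and 7, Neto1 24 and 9, Grik2 22 and 18, Grik1 20 and 16, and Neto2 20 and 17. Within 500 bp of a start site lay 90 (30.3%) and 48 (32.2%), against 42.8% and 48.5% of all footprints. Replicate 1 and replicate 2 placed 85.9% and 90.6% of the member footprints inside a peak, against 86.6% and 87.9% of all. Of the footprints of replicate 1, 23.2% overlapped one of replicate 2, against 37.4% of all footprints. In the other direction it was 47.7%, against 58.2%. By gene, this overlap was highest for Neto2 (55%) and lowest for Grik3 (9.09%) in replicate 1, and highest for Grid1 (73.1%) and lowest for Grik1 (18.75%) in replicate 2. At least 1 footprint was inside 82 of the 104 linked peaks of replicate 1 (78.8%, against 76.6% of all linked peaks) and 44 of the 69 of replicate 2 (63.8%, 95% interval 51.3 to 75.0%, against 73.2%).

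The auxiliary subunit gene Neto1 lies on chromosome 18, 86394952 to 86506718, on the plus strand, 112 kb. Its 3 start sites were covered by 4 promoter peaks of 0.60 to 1.10 in replicate 1 and 2 peaks of 0.59 and 0.86 in replicate 2. The peaks of replicate 2 were not in its stricter list. Its linked sites in both libraries were in intron 4, with 0.91 and 0.73 at 20.9 kb, and in intron 7, described above. The strongest promoter peak of Neto1, 1.10 and 0.86, was above 20.1% and 17.1% of the protein-coding genes with a promoter peak.

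Promoter peaks of the 8 genes were compared with those of the AMPA, NMDA and metabotropic glutamate receptor genes. For the AMPA receptor 4 of 4 genes had one in both libraries, with medians of 1.45 in replicate 1 and 1.18 in replicate 2. Of the 7 NMDA receptor genes 5 did, with medians of 1.54 and 1.38 among those with a peak, and Grin2c and Grin3b had none. Of the 8 metabotropic receptor genes 8 had one in replicate 1 and 5 in replicate 2, with medians of 0.79 and 0.71. Median linked peaks per 100 kb were 3.88 and 2.54 for the 8 genes, 1.79 and 1.56 for AMPA, 2.68 and 1.67 for NMDA and 2.73 and 1.32 for metabotropic receptor genes. Grik4 at 3.40 and 2.04 stood above Gria2 at 3.07 and 2.00, by little in replicate 2. The strongest NMDA promoter was that of Grin1, 2.85 and 1.60.

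**Figure D5:**
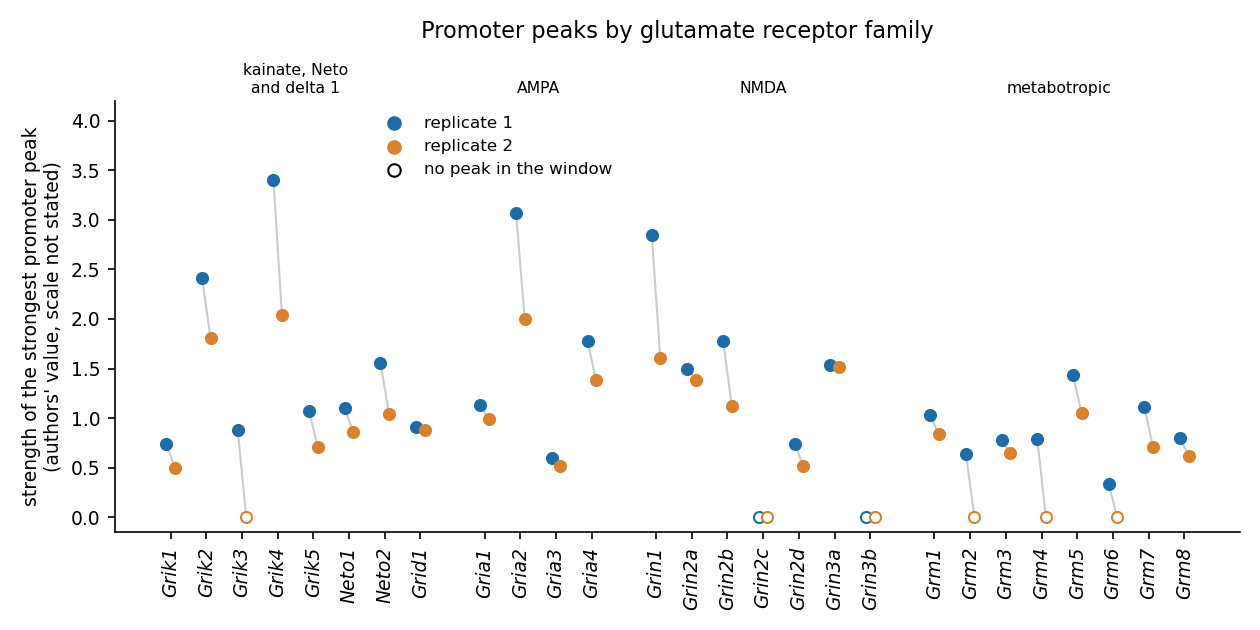
Strength of the strongest promoter peak (vertical axis, the authors' value with no stated scale) of the 8 genes and of the AMPA, NMDA and metabotropic receptor genes, by family, in replicate 1 (blue) and replicate 2 (orange). Open points mark genes without a peak in the window. Grik4 has the highest value in both libraries, 3.40 and 2.04.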

How the data were processed

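DNase-seq peaks, footprints and FDR cut rates of 2 libraries were used. Per the deposited notes, all were called from each library's own alignments to mm10, so that replicates were not pooled. Which aligner, callers and filters were used is not given in the sources used here. Peak strength is a signal deposited by the authors, on a scale they do not give. Per the deposited notes the FDR files (p-values) list stretches of bases, each below 0.05. The footprint files hold 1 constant as value, so positions alone were used. The longer of the 2 deposited peak lists of each library was the main one and the shorter (53068 peaks in replicate 1, 36975 in replicate 2) the stricter alternative, with thresholds not stated. Total reads are unknown.

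Positions were compared with GRCm38.p6 and 0 peaks or footprints lay past a chromosome end. Reads of the hybrid strain were aligned to mm10, and the effect of CAST/EiJ variants on the values was not tested. Peaks were assigned by midpoint to GENCODE M21 gene records plus 10 kb. Some peaks of the same library overlap or lie inside one another, and each was counted. Shared peaks overlapped by at least 1 bp, and merged sites took the maximum strength per library. Exon and intron numbers follow the transcript with the longest coding sequence. Footprints were extended by 5 bp for consensus searches. The main tools were numpy 2.4.6, pandas 2.3.3, scipy 1.17.1 and pysam 0.24.0, and overlaps, merging, gene counts and consensus searches were tested on simulated data, partly against bedtools 2.31.1. The genes, lists and consensus sequences were chosen with earlier results of these data known. All 8 genes are named. The rule for sites took up to 3 of the strongest shared linked sites per gene, the strongest of each library alone and the promoter peaks, and a subset is printed, in part as ranges. With 1 group no test between groups was made. The settings varied were the peak list, the number of peaks, the library, and the windows, flanks, assignments and overlaps.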

Additional observations from a re-analysis of the deposited data

How the results depend on the processing

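The stricter list gave 55 peaks per library at the 8 genes (mean of both libraries), against 109, 40 linked peaks, against 86.5, and 3 genes with a promoter peak in both libraries, against 7. A 50% reciprocal overlap left 41.3% of the linked peaks of replicate 1 shared, against 51.9%, and 60.9% of those of replicate 2, against 82.6%. Linked peaks with GGGCGG averaged 10.5 both in 150 bp windows and in the called peaks, against 17.5 in 300 bp windows, those with TAATTA 2.5 and 2, against 10, and those with the AP-1 consensus 3.5 in 150 bp windows, against 7. Allowing 1 mismatch, chosen after seeing the data, raised CTCF matches to 12.5, against 3. The cause was not tested. The other 35 of 46 alternatives for these results kept counts within 1.5 times, or shares within their intervals. For single genes 74 of 96 did. Changes of direction were not scored. The TAATTA share in replicate 1 went from above that of all linked peaks in 300 bp windows to below it in the called peaks. Linked peaks ranged from 69 in replicate 2 alone to 104 in replicate 1 alone, and genes with a promoter peak from 7 to 8. Without replicate 1, Grik3 had 4 peaks, against 9 on average, and Grik2 had 3 linked peaks, against 5. In the gene record alone Grik5 averaged 4.5 peaks, against 15.5, and Neto1 4, against 7. No paired analysis was possible because there is 1 group. Depth is unknown, so a peak missing from 1 library shows only that it was not called there.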

Other observations

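Genes that act with these receptors ranged widely in the strength of their strongest promoter peak. The editing enzyme gene Adarb1, whose product recodes kainate receptor transcripts, had 2.89 in replicate 1 and 1.44 in replicate 2, and Adar had 3.21 and 2.69. Of 9 genes for extracellular partners (cerebellins, C1q-like proteins and neurexins), 9 had a promoter peak in replicate 1 and 8 in replicate 2. Nrxn2 had the strongest of these, 4.38 and 2.49, and Cbln2, whose product links delta 1 receptors to neurexins, had 2.18 and 1.48. Cbln1 had 2.10 and 0.76, C1ql2 0.70 and 0.45, and Cbln4 0.36 and 0.40. C1ql1 had 0.88 in replicate 1 and no peak in replicate 2.

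The CTCF consensus with up to 1 mismatch was searched after the sequences of the strongest sites had been seen. It was present in 5 of the 10 strongest linked sites called in both libraries and in 6 of the other 42. Among all linked peaks of replicate 1 at least as strong as the weakest of those 10 (1.49 or more, 7794 peaks) 56.9% held it, so 5 of 10 is near the share of peaks of that strength. Over all linked windows it was in 13.5% of the member peaks of replicate 1 and 15.9% of those of replicate 2, against 20.02% and 27.19% of all.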
